A study of Homo sapiens with 6 samples.

Results

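The transcripts of 4 families of matrix and cell-surface metalloproteinase genes were examined in OVCAR8 cells: the matrix metalloproteinases (MMP), the ADAM and ADAMTS proteases and the tissue inhibitors of metalloproteinases (TIMP). Members were all symbols of these families in the authors' merged count table, as a family name followed by a number; ADAM6, a pseudogene in humans, is included by its symbol. The rule found 76 of the table's 28381 lines, each with its own Ensembl gene ID. Of these, 67 carried counts and 9 were empty second IDs for symbols such as ADAM9, MMP11 and ADAMTS13. OVCAR8 is an established human high-grade ovarian carcinoma line. Cells were seeded at 300000 per well, kept without serum for 16 hours, and then either left untreated (3 libraries, replicates 2, 3 and 4) or given 50 ng/mL of recombinant human relaxin-2, a secreted peptide hormone, for 8 hours (3 libraries, replicates 1, 2 and 3). Total RNA was sequenced with a stranded kit, and all 6 libraries come from this 1 line. Whether the triplicates came from separate cultures is not stated in the labels. The spread behind each p-value is thus that of these libraries and may be technical.

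MMPs are secreted or membrane-bound zinc proteases that cut collagens and other matrix proteins, and they are made as inactive proenzymes that must lose a propeptide. ADAMs are transmembrane proteins, many of which shed the extracellular parts of growth factors, receptors and adhesion molecules, while ADAMTS proteases are secreted and cut proteoglycans and procollagens. TIMPs bind the active site and block most of these enzymes. Relaxin is known in fibroblasts and reproductive tissue as a hormone that shifts this balance toward matrix breakdown, through the receptor RXFP1. RXFP1 itself had 1 read in total, in 1 of the 6 libraries.

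Gene reads per library ran from 11939148 to 22426768. Untreated replicate 2 and relaxin-2 replicate 2 stood apart. The share of multimapping reads was 27.0% in relaxin-2 replicate 2 and 5.31% to 6.19% in the others, and over all genes untreated replicate 2 was lower the richer in G and C the transcript (Spearman's rho across genes -0.79), while relaxin-2 replicates 2 and 3 ran the other way (0.64 each). The epithelial markers KRT8 (817 CPM, counts per 1000000 gene reads, over all libraries), KRT18 (1229 CPM), PAX8 (58.6 CPM) and EPCAM (30.9 CPM) were present, but KRT19 and MUC16 had 4 reads each and CDH1 0.898 CPM, and the mesenchymal genes VIM (1741 CPM), CDH2 (259 CPM) and ZEB1 (57.5 CPM) were abundant. None of the 4 leukocyte markers was tested; they summed to at most 0.291 CPM in any library. The 3 endothelial markers summed to 0.992 to 1.46 CPM in untreated and 1.39 to 2.18 CPM in relaxin-2 libraries. Of the 4 fibroblast markers DCN had 0 reads, and the list, mostly PDGFRB, summed to 10.7 to 18.3 CPM in untreated and 17.9 to 18.8 CPM in relaxin-2 libraries. The part of other cell types in the results below was not tested.

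The promoters of members that reached the filter of the comparison below were compared, without a test, with those of members that did not. The 250 bases before the start site were read from RefSeq (build GRCh38.p14) for the 39 of 67 members with an entry. MMP1, MMP2, MMP9, TIMP2, ADAM9 and ADAMTS1 are among the 28 without one. The median GC content of this window was 73.6% in the 23 members that passed the filter and were tested and 45.8% in the 16 others, 5 of which had 0 reads, against 58% over 27305 promoters. Shown here are TIMP1, MMP14 and MMP15, which were tested, and MMP10 and MMP8, which lie near MMP1 in the gene array on chromosome 11 and had few or no reads. Each runs 5′ to 3′ on the gene's strand and ends at the base before the start site. Capitals mark a GC box (GGGCGG or its reverse complement CCGCCC) or a TATA box (TATAAA or its reverse complement TTTATA). The windows are chrX:47582186-47582435 (plus strand) for TIMP1, chr14:22836335-22836584 (plus) for MMP14, chr16:58025504-58025753 (plus) for MMP15, chr11:102780629-102780878 (minus) for MMP10 and chr11:102724955-102725204 (minus) for MMP8.
TIMP1: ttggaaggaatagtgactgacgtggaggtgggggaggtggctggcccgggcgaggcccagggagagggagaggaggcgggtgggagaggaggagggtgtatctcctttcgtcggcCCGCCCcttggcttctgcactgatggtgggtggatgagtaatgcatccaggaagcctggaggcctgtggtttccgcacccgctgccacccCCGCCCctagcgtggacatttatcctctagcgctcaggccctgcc
MMP14: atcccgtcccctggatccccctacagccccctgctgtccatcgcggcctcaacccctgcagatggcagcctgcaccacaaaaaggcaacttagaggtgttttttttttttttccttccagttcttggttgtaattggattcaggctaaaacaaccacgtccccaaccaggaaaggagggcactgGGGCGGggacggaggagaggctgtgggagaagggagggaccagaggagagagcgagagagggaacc
MMP15: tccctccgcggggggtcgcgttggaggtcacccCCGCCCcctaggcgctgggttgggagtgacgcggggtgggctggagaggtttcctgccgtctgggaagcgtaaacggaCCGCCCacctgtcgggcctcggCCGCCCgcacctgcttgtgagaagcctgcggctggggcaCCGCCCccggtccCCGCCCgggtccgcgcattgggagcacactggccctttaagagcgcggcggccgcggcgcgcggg
MMP10: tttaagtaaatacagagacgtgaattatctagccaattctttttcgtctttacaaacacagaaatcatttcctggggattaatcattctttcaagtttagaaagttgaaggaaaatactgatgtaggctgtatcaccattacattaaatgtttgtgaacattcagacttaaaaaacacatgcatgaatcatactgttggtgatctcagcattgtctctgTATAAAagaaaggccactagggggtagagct
MMP8: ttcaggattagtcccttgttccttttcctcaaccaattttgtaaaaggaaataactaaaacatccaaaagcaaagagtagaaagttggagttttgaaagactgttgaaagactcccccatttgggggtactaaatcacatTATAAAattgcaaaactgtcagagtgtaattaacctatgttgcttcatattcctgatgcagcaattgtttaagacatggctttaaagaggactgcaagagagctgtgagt
A GC box was found in 20 of the 23 tested members and in 6 of the 16 others, against 42.3% of all promoters. MMP15 held 5, TIMP1 2 and MMP14 1. A TATA box on either strand was found in 1 tested member, ADAMTS10, and in 6 of the 16 others, MMP7, MMP8, MMP10, MMP20, MMP21 and MMP26, against 11.1% of all promoters. In MMP10 it began 31 bases before the start site, in MMP7 30 and in MMP26 28. In MMP20 it began 72 bases before, in ADAMTS10 78, in MMP21 92 and in MMP8 110. Among the 39 members searched, the exact AP-1 motif (TGACTCA or its reverse complement TGAGTCA) was found in MMP7 alone, against 4.16% of all promoters. The exact cAMP response element TGACGTCA, a palindrome, was found in 0 of them, against 1.77%. Variants of these motifs were not sought, and the 28 members without an entry, MMP1 and MMP9 among them, were not searched. None of these motifs contains another, and a match describes the sequence only.

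Of the 67 members, 35 passed edgeR's filter on low counts and 32 did not. Reads were found at 0 in all 6 libraries for 9 members, the matrilysins MMP7 and MMP26, the neutrophil collagenase MMP8, MMP20, MMP27, ADAM2, ADAM6, ADAM33 and ADAMTS8. This allows each up to 0.0264 CPM by a floor of 3 counts over the 113628275 gene reads, for counting error only. A further 15 had 1 to 6 reads in total, among them the gelatinase MMP2 with 1 read, the stromelysin MMP3 with 1, the collagenase MMP13 with 4 and the matrix-bound inhibitor TIMP3 with 3. The other 8 untested members had 14 to 46 reads, including the gelatinase MMP9 with 20 and the stromelysin MMP10 with 29. The 23 of these 32 members with at least 1 read entered a fit with no filter on low counts, and 0 passed the adjusted edgeR threshold there.

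The 9 MMP genes of the array on chromosome 11 (102520508 to 102955734, GRCh38, GENCODE release 29) show this selectivity among neighbours. MMP1, the interstitial collagenase (102789920 to 102798160, minus strand), held 2801 of the array's 2839 reads, or 98.7% (exact 95% binomial interval 98.2% to 99.1%). The interval pools the reads of all libraries and covers counting error only. MMP10 and MMP3, the genes on either side of it, had 29 reads and 1 read. The other 6 genes had 8 reads together, 4 in MMP12 and 4 in MMP13.

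The tested members covered a wide range of levels. Levels between genes are given as CPM per kilobase of exon, with CPM scaled by the TMM method. ADAM9 (meltrin gamma, chromosome 8), a widely expressed sheddase, had the highest level, 111 ± 12.6 in untreated libraries (mean ± SD, n = 3), and 33.8% of all reads in member genes. The next were TIMP2 (34.3 ± 3.02), ADAMTS6 (34.01 ± 1.90), ADAMTS1 (27.3 ± 0.545), TIMP1 (21.8 ± 5.70), MMP14 (21.3 ± 5.11), ADAM10 (14.9 ± 1.73), MMP1 (13.8 ± 0.941) and ADAM17 (10.9 ± 0.384). In untreated libraries TIMP2 and ADAMTS6 differed by less than the SD of either, and so did TIMP1 and MMP14. ADAM10 and MMP1 differed by less than the SD of ADAM10 but by more than that of MMP1. The 26 other tested members had at most 6.10 over all libraries, down in untreated cells to ADAMTS17 at 0.139 ± 0.031. The 10 members with most reads held 90.9% of the reads in member genes.

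**Figure D1:**
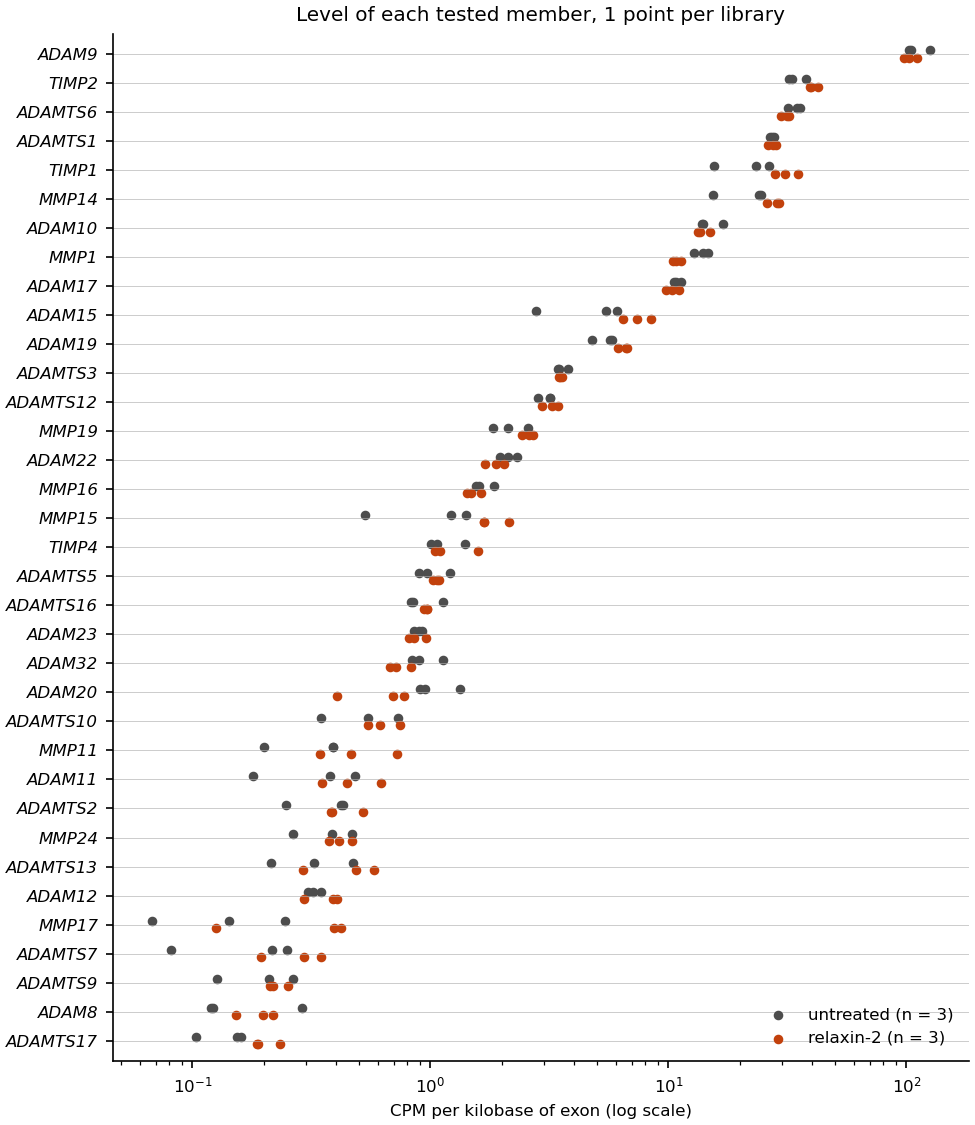
Level of each of the 35 tested members in CPM per kilobase of exon on a log axis, 1 point per library, grey for untreated and orange for relaxin-2. ADAM9 lies alone at the top near 100, ahead of TIMP2, ADAMTS6, ADAMTS1, TIMP1 and MMP14, and for most members the groups lie over each other.

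Membrane-type 1 MMP (MMP14) is known to form a complex with TIMP2 on the cell surface that activates the proenzyme of MMP2. Here both MMP14 and TIMP2 were among the 6 highest members and MMP2 had 1 read in all libraries together. The pair of classical sheddases, ADAM10 (chromosome 15, 58588807 to 58749978) and ADAM17 (chromosome 2, 9488486 to 9556732), which release Notch and EGF receptor ligands, were both present in every library. Among the ADAMTS genes, the proteoglycan-cleaving ADAMTS1 (chromosome 21, 26835747 to 26845409) had 22022 reads and its neighbour ADAMTS5 (26917912 to 26966513) 1080. The aggrecanase ADAMTS4 had 21 reads and ADAMTS8 had 0.

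The comparison of relaxin-2 with untreated cells asked whether the hormone shifted this set. None of the 35 tested members passed (edgeR quasi-likelihood test, Benjamini-Hochberg adjusted over all 16740 tested genes, smallest adjusted p = 0.408), and the share of all tested genes that passed was 0%. DESeq2 and limma-voom also called 0 members. At an unadjusted p under 0.05 there were 8 members, 6 higher after relaxin-2 (17.1% of those tested, against 6.3% of all tested genes) and 2 lower (5.71% against 4.52%). All 3 relaxin-2 libraries lay above all untreated libraries in 7 members (20%, against 10.8% of all tested genes) and below in 3 (8.57%, against 10.5%). Fold changes were above 0 in 24 of 35 members, against 47.8% of all tested genes, with a median log2 fold change of 0.16, against -0.015 over all genes. In bulk RNA, fewer cells of a type and less RNA per cell cannot be told apart.

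Ordered by p, TIMP2 and TIMP1 came first among the higher members. TIMP1, a secreted inhibitor (chromosome X, 47582313 to 47586789), had 23.9, 35.9 and 40.9 CPM in untreated replicates 2, 3 and 4 and 43.0, 53.8 and 47.8 CPM in relaxin-2 replicates 1, 2 and 3. Its groups did not overlap, but untreated replicate 2 was far below the other untreated libraries, and the gap between untreated replicate 4 and relaxin-2 replicate 1 was small. The log2 fold change was 0.52 ± 0.19 (SE), and 0.32 without untreated replicate 2. TIMP2 (chromosome 17, 78852977 to 78925387) had 187, 180.4 and 213 CPM untreated and 223, 239.8 and 221 CPM after relaxin-2. Here untreated replicate 3 was the lowest library, replicate 4 was again the untreated library nearest to the relaxin-2 libraries, and the log2 fold change was 0.24 ± 0.080. TIMP4, a low-abundance inhibitor, had overlapping groups and a log2 fold change of 0.081 ± 0.23, which turned negative with the correction for GC content described below (-0.052). Summed over TIMP1, TIMP2 and TIMP4, the level was 49.7, 56.4 and 65.7 CPM per kilobase in untreated and 68.6, 79.1 and 71.4 in relaxin-2 libraries.

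**Figure D2:**
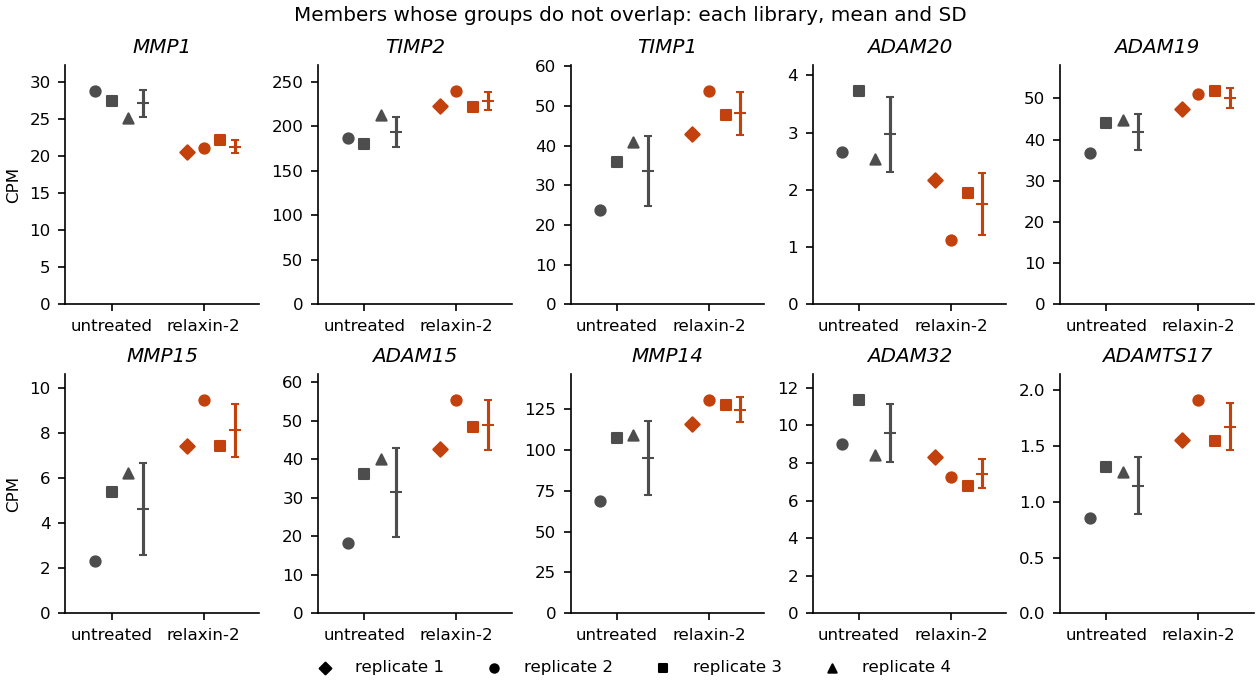
CPM in each library for the 10 members whose groups do not overlap, ordered by p, with the mean and SD (n = 3) beside the points and the replicate number shown by the marker. Untreated replicate 2 (circle) is the lowest library for TIMP1, ADAM19, MMP15, ADAM15, MMP14 and ADAMTS17, whereas MMP1 has narrow groups of 25.1 to 28.8 and 20.5 to 22.2 CPM.

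MMP1, which cleaves fibrillar collagens, was the member with the smallest p and was lower. It had 28.8, 27.4 and 25.1 CPM in the untreated libraries and 20.5, 21.2 and 22.2 CPM in the relaxin-2 libraries. Both groups were tight and did not overlap, with a log2 fold change of -0.35 ± 0.10 and an unadjusted edgeR p of 0.0087 beside the adjusted p = 0.408. Of all tested genes, 10.5% likewise had separate groups that were lower after relaxin-2. Its direction was negative in all 18 alternative fits, with values from -0.40 to -0.20 and adjusted p from 0.236 to 0.766, and its unadjusted p was under 0.05 in 17 of them, the exception being the fit with the replicate number as a block. Other members came near this count, with an unadjusted p under 0.05 in 16 fits for TIMP2 and ADAM20 and in 15 for TIMP1. None of these changed sign either. The fit with the block compared only replicates 2 and 3 of each group, as numbers 1 and 4 each occur in a single group. All 18 fits reuse the same libraries, so their agreement is not independent support. MMP1 was the one collagenase that could be tested.

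The membrane-type MMPs, which are anchored at the cell surface, had 4 of 5 tested members higher. MMP14 (chromosome 14, 22836557 to 22849027) had 68.8, 107 and 109 CPM untreated and 116, 131 and 128 CPM after relaxin-2. Untreated replicates 3 and 4 lay just under the relaxin-2 libraries and replicate 2 far under them. The log2 fold change of 0.39 ± 0.17 was 0.20 without that library. MMP15 (chromosome 16, 58025566 to 58046901) had 2.34, 5.40 and 6.23 CPM untreated and 7.46, 9.50 and 7.45 CPM after relaxin-2. No relaxin-2 library fell inside the untreated range, and the log2 fold change was 0.81 ± 0.32, and 0.47 without untreated replicate 2. MMP17 had a log2 fold change of 1.08 ± 0.55, from 0.607 ± 0.356 to 1.25 ± 0.652 CPM, and its groups overlapped. The value was 0.72 without untreated replicate 2 and 0.46 with the correction for GC content described below. MMP24 also had overlapping groups (0.18 ± 0.25), and it was -0.23 with that correction and -0.012 without untreated replicate 2. MMP16 was the member on the other side of 0, at -0.14 ± 0.12, and -0.053 without untreated replicate 2. Outside this class, the stromelysin MMP11 had 0.61 ± 0.34 and MMP19 had 0.24 ± 0.15, both with overlapping groups. Without untreated replicate 2 they were 0.33 and 0.13, and with the correction for GC content 0.051 and 0.13.

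Among the 8 tested ADAMs known or expected to be active proteases 4 were higher and 4 lower. The 3 most abundant had small differences. ADAM9 had 867, 711 and 723 CPM untreated and 768, 677 and 708 CPM after relaxin-2, ADAM10 had a mean of 241 ± 28.0 and 226 ± 14.3 CPM, and ADAM17 117 ± 4.12 and 112 ± 6.58 CPM. Their log2 fold changes were -0.096 ± 0.098, -0.094 ± 0.095 and -0.063 ± 0.071, and in each of the 3 untreated replicate 2 was the highest library. ADAM9 and ADAM10 were 0.00082 and 0.0060 without that library, and all 3 were above 0 with the correction for GC content described below, where ADAM8 went from 0.11 to -0.49. ADAM12, a protease also known as meltrin alpha, had 3.02, 3.42 and 3.17 CPM untreated and 2.89, 3.83 and 4.0002 CPM after relaxin-2. Its groups overlapped, and the log2 fold change was 0.16 ± 0.18, from 0.054 without relaxin-2 replicate 3 to 0.29 without relaxin-2 replicate 1. ADAM8, a leukocyte-associated protease, had 0.585, 0.570 and 1.38 CPM untreated and 0.946, 1.05 and 0.727 CPM after relaxin-2, which overlap.

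ADAM15 and ADAM19 were the higher ADAMs whose groups did not overlap. ADAM15, a disintegrin with an integrin-binding motif (chromosome 1, 155050566 to 155062775), had 18.2, 36.1 and 40.0 CPM untreated and 42.6, 55.5 and 48.5 CPM after relaxin-2. As in TIMP1, the untreated library nearest to the treated ones was replicate 4 and the one farthest away replicate 2. The log2 fold change was 0.64 ± 0.26, and 0.35 without replicate 2. ADAM19 (meltrin beta, chromosome 5, 157395534 to 157575775) had 36.7, 43.9 and 44.7 CPM untreated and 47.4, 51.0 and 51.8 CPM after relaxin-2, with 0.26 ± 0.10.

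Both lower ADAMs with separate groups were scarce. ADAM20, a gene known for expression in testis (chromosome 14, 70522358 to 70535015), had 2.66, 3.73 and 2.54 CPM untreated and 2.17, 1.13 and 1.95 CPM after relaxin-2, from 283 reads in all. Relaxin-2 replicate 2 was the lowest library, and the log2 fold change was -0.72 ± 0.27. ADAM32, which lacks protease activity (chromosome 8, next to ADAM9), had 9.003, 11.4 and 8.42 CPM untreated and 8.29, 7.23 and 6.77 CPM after relaxin-2. The gap between the groups was narrow, and its log2 fold change was -0.37 ± 0.16, and -0.23 without untreated replicate 3. Of the other inactive ADAMs tested, ADAM22 had -0.18 ± 0.12, ADAM23 -0.021 ± 0.14 and ADAM11 0.43 ± 0.37. Without untreated replicate 2 these were -0.12, 0.0067 and 0.10, and with the correction for GC content -0.074, 0.030 and -0.058.

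The ADAMTS proteases had 10 of 12 tested members above 0, none at an unadjusted p under 0.05. With the correction for GC content, ADAMTS2 (-0.29), ADAMTS10 (-0.34), ADAMTS13 (-0.12) and ADAMTS16 (-0.077) lay below 0 and ADAMTS3 (0.093) above. The most abundant gave the tightest values. ADAMTS1 had 192, 197 and 189 CPM untreated and 186, 194 and 200.2 CPM after relaxin-2, which interleave, and its log2 fold change was 0.0040 ± 0.061. ADAMTS6, known to act on fibrillin microfibrils (chromosome 5, 65148736 to 65481920), had 305, 296 and 273 CPM untreated and 276, 255 and 269.7 CPM after relaxin-2, with -0.13 ± 0.069 and 1 relaxin-2 library inside the untreated range. ADAMTS17 was the member whose groups did not overlap, with 0.855, 1.32 and 1.27 CPM untreated and 1.56, 1.92 and 1.55 CPM after relaxin-2. These values rest on 155 reads, and the log2 fold change was 0.53 ± 0.24, and 0.34 without untreated replicate 2. The procollagen propeptidases ADAMTS2 and ADAMTS3 had 0.21 ± 0.25 and -0.017 ± 0.094, and -0.021 and 0.031 without that library.

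**Figure D3:**
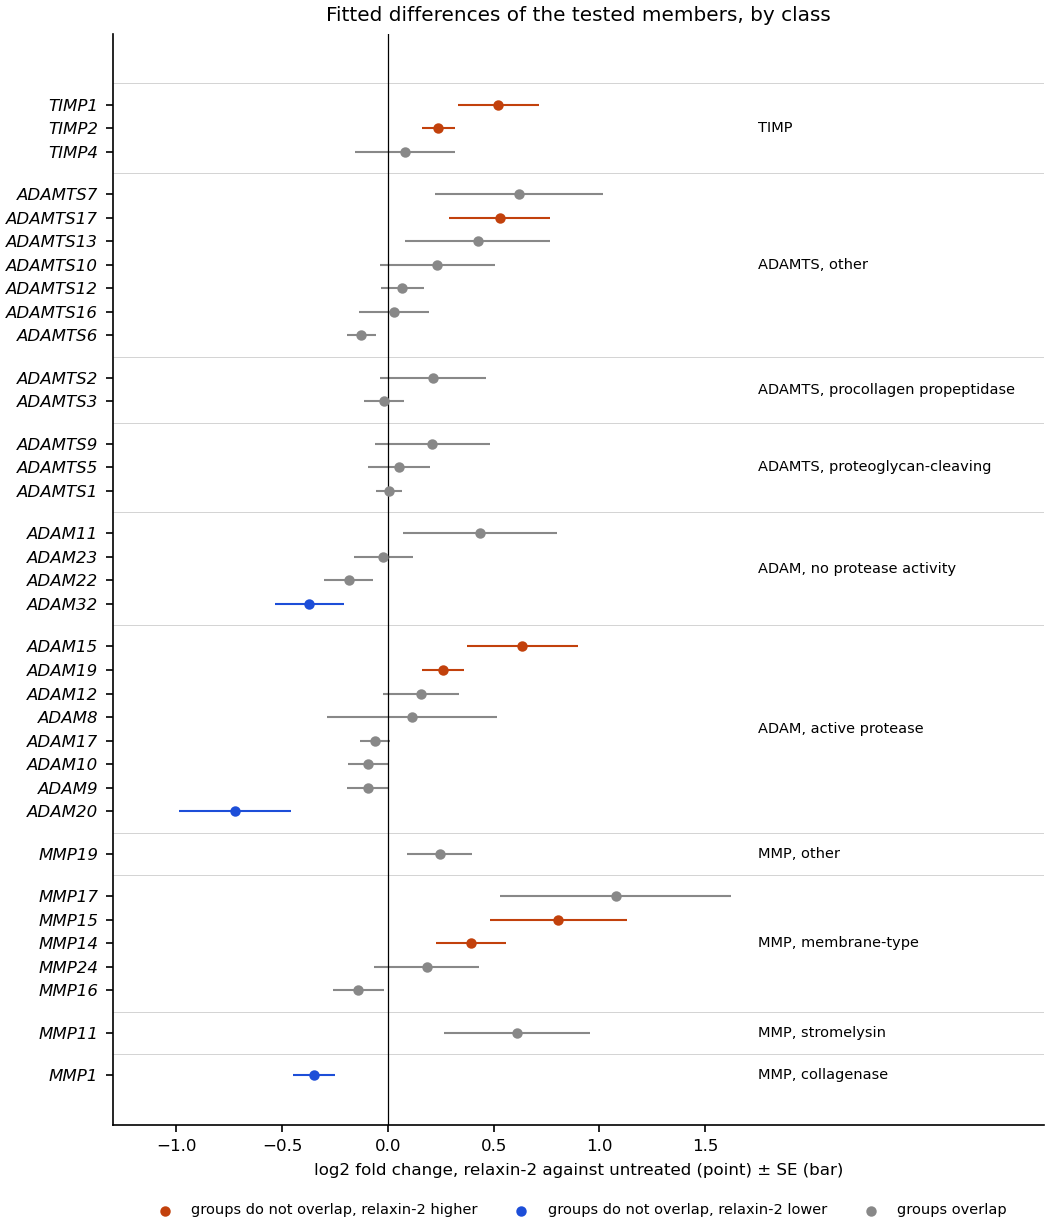
Log2 fold change of relaxin-2 against untreated for the 35 tested members, with its standard error, by class; orange and blue points are members whose groups do not overlap. Of the 5 membrane-type MMPs 4 lie above 0, ADAMTS1 lies on 0 with a short bar, and MMP1, ADAM20 and ADAM32 are the blue points.

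The direction of the members went with the GC content of their transcripts. All 20 tested members over 50% GC had a log2 fold change above 0, with a median of 0.33, and so did 83.0% of the 7481 tested genes over 50% GC. Of the 15 members at or under 50% GC 11 were below 0, with a median of -0.094, as were 7425 of 9192 genes of that kind. Across the 35 members, log2 fold change and GC content had a Pearson's r of 0.80 and a Spearman's rho of 0.84, and across 16673 genes 0.71 and 0.73. Genes share the 6 libraries and are not independent replicates. The 7 members with separate, higher groups had 52.5% to 62.5% GC and the 3 with lower groups 39.6% to 43.4%.

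The libraries showed the same split. On a log2 scale, members over 50% GC had a median deviation from their own mean of -0.64 in untreated replicate 2, while it was -0.060 and 0.075 in untreated replicates 3 and 4. It was 0.047, 0.40 and 0.19 in relaxin-2 replicates 1, 2 and 3, so untreated replicate 4 lay above relaxin-2 replicate 1. For members at or under 50% GC the order was turned, with 0.13 in untreated replicate 2 and -0.12 in relaxin-2 replicate 2. Untreated replicate 2 was the lowest library for 19 of the 35 members, against 37.1% of all genes, and relaxin-2 replicate 2 the highest for 13, against 26.2%.

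After correcting every library for its smooth dependence on GC content and exon length (offsets in the edgeR fit), 12 of the 20 members over 50% GC were above 0, with a median of 0.050, and the median over all members was 0.038. The correlation across members was then 0.017 (Pearson) and 0.015 (Spearman). MMP14 went from 0.39 to 0.025, ADAM15 to 0.14, ADAM19 to 0.099 and ADAMTS17 to 0.17. TIMP1 was 0.22, TIMP2 0.15, MMP15 0.37, MMP1 -0.20, ADAM20 -0.56 and ADAM32 -0.22. Of these TIMP1, TIMP2, MMP15, MMP1 and ADAM20 had an unadjusted edgeR p under 0.05 with the offsets. They were all such members of the 35 tested, 3 higher and 2 lower. In this fit 10.6% of all tested genes had such a p, in either direction. With the offsets 0 members passed the adjusted threshold. The part of the libraries' composition in the differences was not tested beyond these values.

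**Figure D4:**
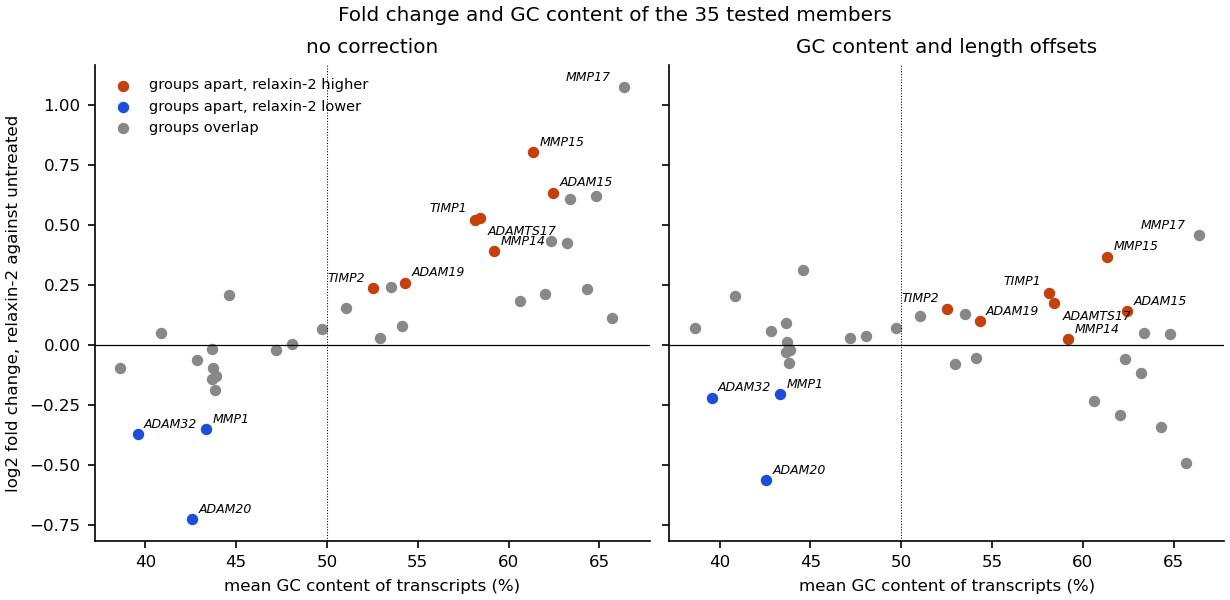
Log2 fold change against the mean GC content of a gene's transcripts for the 35 tested members, without correction (left) and with offsets for GC content and length (right); the dotted line is at 50% GC. On the left every member right of the line lies above 0, and on the right 12 of 20 do.

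Genes that control, bind or resemble these proteases were also mostly on the higher side before the correction for GC content. The list of 33 such genes held activating convertases, partners of ADAM10 and ADAM17, and genes of inhibition or clearance. It also held inducers or surface partners, ADAMTS-like proteins and astacins. Of the 33 genes, 27 were tested and 0 passed the edgeR test. By sign 19 were above 0 and 8 below, where 47.8% of all tested genes were above 0, with a median log2 fold change of 0.31. At an unadjusted p under 0.05 there were 8 higher and 0 lower, against 6.3% and 4.52% of all tested genes. These were the convertases FURIN (0.84 ± 0.31) and PCSK6 (0.34 ± 0.14), which cut the propeptides of membrane-type MMPs and ADAMs, RHBDF2 (0.71 ± 0.30), an iRhom that carries ADAM17 to the surface, and the ADAM10-binding tetraspanins TSPAN10 (0.98 ± 0.27), TSPAN14 (0.28 ± 0.12) and TSPAN17 (0.51 ± 0.17). LRP1 (0.80 ± 0.29), a receptor that clears protease complexes, and BSG (0.79 ± 0.33), the MMP inducer EMMPRIN, completed them. Their GC content was 55.0% to 62.5%, and without untreated replicate 2 FURIN was 0.53, LRP1 0.50, BSG 0.46, RHBDF2 0.41, PCSK6 0.22 and TSPAN14 0.16. With the offsets the 8 ranged from 0.064 in TSPAN14 to 0.50 in TSPAN10. Among the other genes of the list, the ADAM17 partner FRMD8 went from 0.42 to -0.19 with the offsets. ADAMTSL5 went from 0.29 to -0.35 and the ADAM10 partner TSPAN33 from 0.092 to -0.047. Without the offsets TFPI2, a serine protease inhibitor of the matrix (127 ± 13.3 CPM untreated), had -0.076 ± 0.094, RECK, a membrane-anchored MMP inhibitor, -0.024 ± 0.14, and the hyaluronan receptor CD44 -0.034 ± 0.074. With them these genes were at 0.011, 0.060 and 0.010, and TSPAN5 went from -0.039 to 0.046.

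Strand mattered for some members. The counts above are of reads on the gene's strand. In most abundant members the opposite strand held few reads, such as 19 against 23589 in TIMP2 and 120 against 85168 in ADAM9. MMP24 had 838 reads on the opposite strand and 197 on its own, and the gene MMP24OS, which overlaps it on the opposite strand, had 1528. MMP19 had 546 opposite reads and 1236 of its own, beside the overlapping gene TMEM198B. In ADAM17, overlapped by IAH1, the unstranded column held 0.706 times the reads of the stranded one, and in MMP1, overlapped by WTAPP1, 0.772 times, as reads that fit genes on both strands are left out there. The unstranded column of TIMP2 held 0.865 times the reads of its stranded one. From unstranded counts the log2 fold change of MMP1 was -0.39, that of TIMP2 0.17 and that of ADAM17 -0.027.

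**Figure D5:**
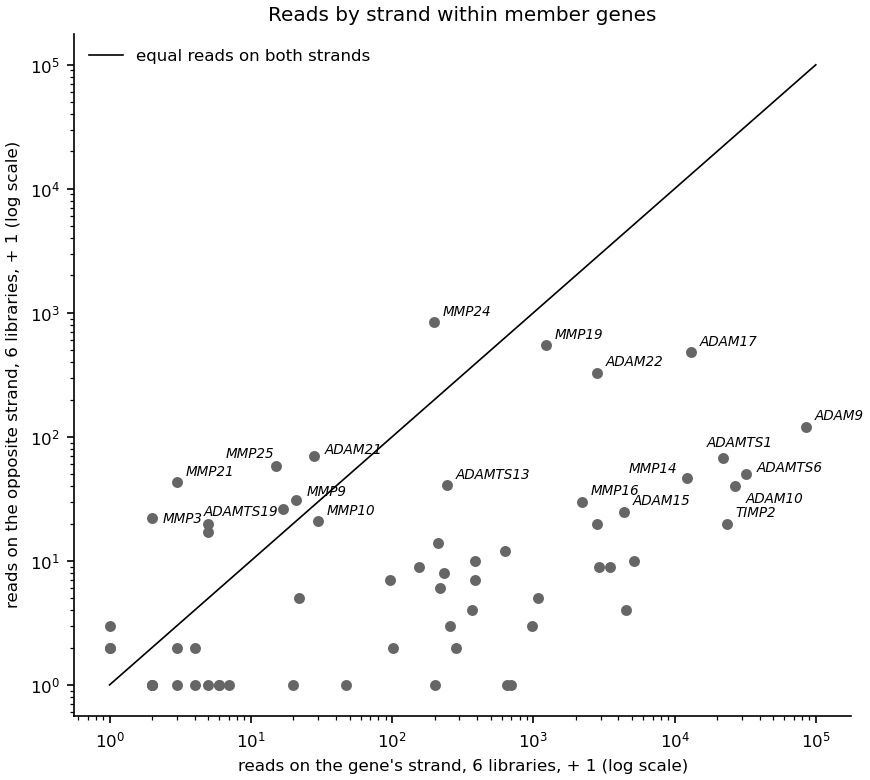
Reads on the gene's own strand and on the opposite strand, summed over 6 libraries, for every member with a read, with 1 added and both axes on a log scale. MMP24, MMP25, ADAM21, MMP21, MMP9 and MMP3 are among the genes above the line of equal reads, and the abundant members lie far below it.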

How the data were processed

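Total RNA of 6 OVCAR8 libraries was sequenced. The authors deposited raw counts per gene for each library, without regard to strand and for either strand. The submitters' processing notes name STAR and hg38; for STAR's version and the annotation, the sources used here give nothing. Counts on the reverse strand were used, as their totals were 17.8 to 19.8 times those on the forward strand. For all 67 members with counts they equalled the merged table. Reads assigned to no gene stayed out of library sizes: multimapping reads were 5.31% to 27.0% of a library, reads outside annotated features 17.5% to 32.0%, unmapped reads 6.73% to 17.4% and ambiguous reads 2.36% to 4.18%.

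Genes passing edgeR's default filter were scaled by TMM and compared with edgeR 4.0.16's quasi-likelihood test (R 4.3.3, two-sided, Benjamini-Hochberg adjusted p under 0.05 over all 16740 tested genes), with treatment as the only term. The test was also run on simulated counts. These were drawn without a dependence on GC content, so they cannot show how the test behaves in libraries like these. Exon length, GC content (mean over a gene's transcripts) and positions came from GENCODE release 29 on GRCh38, the assembly that hg38 names; 57433 of 58037 gene IDs matched. Alternatives were DESeq2 1.42.0, limma-voom (limma 3.58.1), other scalings, no filter, unstranded counts, the merged table, leaving out libraries, a replicate block, offsets from natural splines with 4 inner knots, and 1 surrogate variable (sva 3.50.0). Plain library totals were chosen after seeing the data for all but the overlap counts. Members given in full are a fixed list of the best known, every other tested member with an unadjusted p under 0.05 or groups that do not overlap, and the 5 highest per length; further members were named after their values were seen. The members and lists were chosen with earlier results of these data known. Figures were drawn with matplotlib 3.10.9.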

Additional observations from a re-analysis of the deposited data

Results flagged for a closer look

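Reads on the strand opposite to a member exceeded its own reads in every library with at least 10 opposite reads in 6 members, although the main measurement does not use that strand. That number was reached in 6 libraries for MMP24, in 3 each for ADAM21 and MMP25, and in only 1 each for MMP21, MMP9 and MMP3. MMP24 had 838 opposite reads, 81.0% of its reads on both strands (exact 95% binomial interval 78.4% to 83.3%), in all 6 libraries. ADAM21 had 69 opposite reads against 27 of its own, and the overlapping pseudogene ADAM20P1 had 228 reads on that strand. MMP25 had 57 against 14, beside 138 reads of MMP25-AS1. MMP21 had 42 against 2, and no gene is annotated on the opposite strand there. MMP9 had 30 against 20, beside 64 reads of SLC12A5-AS1, but in relaxin-2 replicate 1 it had 4 against 7. MMP3 had 21 against 1, beside 65 reads of WTAPP1. The intervals cover counting error only.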

How the results depend on the processing

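No member passed the adjusted threshold under any of the 19 alternatives. Over all genes the count was 120 with no filter on low counts, 3 without untreated replicate 2 and 3 without both libraries numbered 2. It was 1 with the replicate block, 7 with 1 surrogate variable and 0 in the others. Among the 18 tested members given in full, the smallest adjusted edgeR p came with no filter. They were 0.0602 for ADAM15, 0.0685 for TIMP1, 0.0833 for MMP15 and 0.0915 for MMP14. The median log2 fold change of the members, 0.16, was 0.032 without both libraries numbered 2, 0.038 with the GC content and length offsets, -0.011 with 1 surrogate variable and 0.33 with the replicate block, and ran from 0.0067 (without untreated replicate 2) to 0.31 (without untreated replicate 4) when 1 library was left out. Members with an unadjusted p under 0.05 in edgeR were 3 higher with the offsets, 2 higher with the surrogate variable, and 1 lower with the replicate block. They were 9 higher with the block or with no filter, and 4 higher and 3 lower with plain library totals. Over all tested genes the share with such a p, in either direction, was 10.8% in the main fit. It was 10.6% with the offsets, 8.61% with the surrogate variable, 16.1% with the block, 11.1% with no filter and 10.9% with plain totals. Leaving out 1 library gave 0 to 8 higher, with 0 without relaxin-2 replicate 2, 1 without relaxin-2 replicate 3 and 3 without untreated replicate 3, and 1 to 4 lower, with 1 without untreated replicate 3 or relaxin-2 replicate 2 and 4 without untreated replicate 4. Groups that do not overlap ran from 7 to 14 higher and from 3 to 10 lower, with 14 and 10 without relaxin-2 replicate 1 and 12 and 5 without untreated replicate 4. With fewer libraries, separate groups are more frequent by construction, and the share over all genes is not given for these fits. In the fit with the block, untreated replicate 4 and relaxin-2 replicate 1 had no library of the same number in the other group. They thus added nothing to its comparison of the groups, which rested on replicates 2 and 3 of each. Untreated replicate 2 and relaxin-2 replicate 2, the libraries that stood apart, are among those it kept.

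Of the 18 tested members that the naming rule selects 12 kept their sign in all 18 fits. ADAMTS1, at 0.0040, was -0.020 with upper quartile scaling, -0.027 with plain totals and -0.011 with the surrogate variable, and from -0.022 to 0.028 with 1 library left out. TIMP4 was -0.17 without both libraries numbered 2, -0.052 with the offsets and -0.17 with the surrogate variable (leaving out 1 library, -0.094 to 0.23), and ADAM8 -0.17, -0.49 and -0.28 (-0.11 to 0.61). In the same order ADAM9 was 0.049, 0.073 and 0.078 (-0.15 to 0.00082), ADAM10 0.032, 0.013 and 0.083 (-0.15 to 0.0060) and ADAM17 0.014, 0.059 and 0.010 (-0.11 to -0.022). The cause of these shifts was not tested.

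Replicate numbers 2 and 3 occur in both groups, but nothing in the labels says that they mark a batch. Deviations from the group means correlated at -0.33 for the libraries numbered 2 and 0.12 for those numbered 3. For libraries with unlike numbers the values ran from -0.39 to 0.47. These deviations also carry the libraries' unlike dependence on GC content, so they cannot show whether libraries with the same number share a batch. The values with the replicate block above are given for completeness. With 11939148 to 22426768 gene reads a library, the 32 members with 46 reads or fewer in total fell below edgeR's filter. Without the filter 58 members were tested, all but the 9 with 0 reads.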
